A study of Homo sapiens with 9 samples.

Results

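Fibroblast growth factors (FGFs) and their receptors were followed in U87, an established human glioblastoma cell line. The 9 genes, 4 ligands (FGF1, FGF2, FGF5 and FGF7) and 5 receptors (FGFR1 to FGFR4 and FGFRL1), were taken by gene name from the 58735 genes of the deposited count table. They were chosen by name with the differences in counts between the groups below already known. Their values are therefore given as a description, with no p-value, and nothing is read from whether they passed a test. Of the 9 genes, 6 passed the filter on low counts. FGFR2, FGFR3 and FGFR4 did not.

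RNA sequencing covered 3 groups of 3 libraries. The PCDH group carried the empty vector. The IDH1mt group stably overexpressed isocitrate dehydrogenase 1 with the cancer mutation R132H. The IDH1mt C269S group, shortened to C269S, stably overexpressed the same mutant with cysteine replaced by serine at another position. Per the series' text, the question was how gene expression depends on autopalmitoylation of mutant IDH1, in which the protein adds palmitate, a fatty acid, to itself. The labels name no deletion of the cells' own IDH1 genes, and no group overexpressing IDH1 without R132H was analysed here. The labels do not say whether the lines were clones or pools, or whether replicates were separate cultures, so the errors may be technical.

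Libraries held 19108925 to 24803711 counts. IDH1 itself stood at 111 ± 7.97 CPM (counts relative to library size after TMM scaling, which corrects for differences in composition; mean ± SD, n = 3) in PCDH, 677 ± 16.5 in IDH1mt and 739 ± 30.3 in C269S, which was 6.12-fold and 6.68-fold above PCDH. The count does not separate mutant from normal transcripts. Among astroglial and glioma markers, VIM, NES, SLC1A3 and OLIG2 were counted in every library, while AQP4 had 0 counts in all 9 and SOX2 5 counts in all. GFAP was low, at 3.49, 4.01 and 3.11 CPM in PCDH, IDH1mt and C269S. S100B had 33 counts in all and did not pass the filter on low counts. This astroglial list of 8 genes, mostly VIM, summed to 3005 to 3251 CPM in PCDH. Its sums were 2790 to 2859 CPM in IDH1mt and 2784 to 2854 in C269S. The fibroblast and mesenchymal genes FN1, COL1A2 and COL1A1 were abundant. Their list of 8 genes summed to 14046 to 14984 CPM in PCDH, 13851 to 15573 in IDH1mt and 17386 to 17584 in C269S. Most of this sum was FN1, fibronectin, at 10694 ± 573 CPM in PCDH, 12475 ± 832 in IDH1mt and 14605 ± 221 in C269S. The collagen genes went the other way, with COL1A2 at 2218 ± 56.4, 1274 ± 41.5 and 1601 ± 68.8 CPM and COL1A1 at 1306 ± 52.5, 892 ± 28.8 and 1014 ± 63.8. DCN, decorin, stood at 20.3 ± 0.435, 13.3 ± 0.575 and 16.7 ± 1.35 CPM. For COL1A2, COL1A1, DCN and PDGFRB all IDH1mt libraries lay below all PCDH libraries, as for FGF7 below. For FN1 all IDH1mt libraries lay above all PCDH libraries. The rest of the list, COL3A1, LUM and THY1, overlapped between these groups. The mean in IDH1mt was lower for COL3A1 and higher for LUM and THY1, and THY1 did not pass the filter on low counts. The genes of this list thus moved in both directions. The share of all genes with such a separation is not given here. The neuron list of 6 genes, mostly SNAP25, summed to 57.5 to 63.8 CPM in PCDH, 64.3 to 73.9 in IDH1mt and 63.3 to 71.6 in C269S. For endothelial cells, the list of 5 genes, all with counts, summed to 26.2 to 28.8 CPM in PCDH, 20.2 to 21.2 in IDH1mt and 24.7 to 27.6 in C269S. Most of the endothelial sum was KDR, at 16.6 ± 0.644 CPM in PCDH, 9.58 ± 0.480 in IDH1mt and 13.7 ± 0.286 in C269S. TIE1 was also lowest in IDH1mt, while the means of PECAM1, VWF and CDH5 were higher there than in PCDH. The part of these marker levels in the results below was not tested.

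FGFs are secreted proteins that bind receptor tyrosine kinases on the cell surface, with heparan sulfate chains as co-receptors that hold ligand and receptor together. The activated receptor phosphorylates the adaptor FRS2, which recruits GRB2 and switches on the RAS-ERK cascade. ERK activity in turn induces inhibitors such as the Sprouty proteins and the phosphatase DUSP6. FGF2, basic FGF, is a mitogen for glial and glioma cells and for vessels, and leaves cells without a signal peptide. FGF7, keratinocyte growth factor, is made by mesenchymal cells and acts mainly on the epithelial splice form of FGFR2. FGFRL1 binds ligand but lacks the kinase domain.

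The stretches just upstream of the 4 ligand genes are shown as a description. FGF2 and FGF7, the ligands with the widest differences, have start regions of opposite base composition. So do FGF5 and FGF1, whose groups overlapped. A part of base composition in the differences was not tested. Sequences come from the RefSeq promoter table (GRCh38.p14), where 8 of the 9 genes matched. It lists 4 promoters for FGF1, 2 for FGF5 and 1 each for FGF2 and FGF7. Only the promoter nearest the deposited gene start was used, so other promoters of FGF1 and FGF5 are not described. Each stretch ends before both the RefSeq start and the start in the deposited table, and reads 5′ to 3′ on the gene's strand. Capitals mark matches on either strand to GGGCGG (the GC box) or GCGTG (a hypoxia response core).
FGF2, chr4:122826581-122826707, plus strand: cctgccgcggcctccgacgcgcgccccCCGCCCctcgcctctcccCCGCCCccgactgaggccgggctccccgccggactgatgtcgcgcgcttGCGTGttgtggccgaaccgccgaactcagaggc
FGF7, chr15:49422992-49423095, plus strand: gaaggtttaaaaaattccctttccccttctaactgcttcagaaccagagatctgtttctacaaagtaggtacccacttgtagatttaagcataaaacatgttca
FGF5, chr4:80266338-80266587, plus strand: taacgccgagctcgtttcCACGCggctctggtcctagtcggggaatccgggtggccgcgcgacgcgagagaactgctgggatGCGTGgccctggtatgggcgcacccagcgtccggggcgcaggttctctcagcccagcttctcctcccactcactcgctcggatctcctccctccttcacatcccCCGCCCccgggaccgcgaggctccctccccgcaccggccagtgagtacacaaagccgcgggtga
FGF1, chr5:142698071-142698320, minus strand: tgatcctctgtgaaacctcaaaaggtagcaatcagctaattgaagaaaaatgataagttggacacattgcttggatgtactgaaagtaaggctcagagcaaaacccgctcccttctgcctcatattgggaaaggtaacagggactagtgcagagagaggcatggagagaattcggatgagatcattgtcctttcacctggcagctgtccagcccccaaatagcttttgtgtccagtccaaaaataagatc

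Over the 250 bases before the RefSeq start, GC content was 75.2% for FGF2, above 89.9% of all 35116 promoters in the table, and 38.4% for FGF7, above only 10.1% of them. FGF5 had 68.8% and FGF1 44.8%, and the median of all promoters was 58%. CpG pairs numbered 33 for FGF2, 27 for FGF5 and 2 each for FGF7 and FGF1. FGF2 held 3 GC boxes, 2 of them in the printed stretch, and 1 hypoxia core. FGF5 held 1 GC box and 2 hypoxia cores. Neither motif occurred in the window used for FGF7 or for FGF1, and no marked matches overlapped. Of all promoters, 42.6% held the GC box and 32.2% this hypoxia core. Another form of the hypoxia core, ACGTG, occurs in 18.5% of promoters and was not found in these 4 windows on either strand. The TATA box, searched as TATAAA, occurs in 10.7% of promoters and was not found either. The same held for the ETS factor core, searched as CCGGAA, which 14.5% of promoters hold. It also held for the AP-1 site, searched as TGACTCA, which 4.2% of promoters hold. A match is a string of letters and shows no binding.

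FGF2 (ENSG00000138685, GRCh38 chromosome 4, 122826708 to 122898236, plus strand) was the ligand with the highest level in all 9 libraries. It stood at 446, 455 and 481 CPM in the PCDH libraries, at 874, 830 and 819 in IDH1mt, and at 625, 614 and 519 in C269S. All IDH1mt libraries lay above all C269S libraries, which lay above all PCDH libraries, so no groups overlapped. How many of all genes separate in this way is not given here. No separation of groups, for FGF2 or for the genes below, is therefore read as unusual. IDH1mt was 1.82-fold above PCDH (log2 fold change 0.87, SE 0.06) and C269S 1.27-fold above PCDH (0.35, SE 0.06). From IDH1mt to C269S the log2 fold change was -0.52 (SE 0.06), a 1.43-fold lower level. C269S replicate 3 was the lowest of its group, and without it the C269S difference from PCDH was 0.43. In these bulk libraries, fewer cells of a type and less RNA per cell cannot be told apart.

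FGF2 shares its last part with NUDT6, which runs on the opposite strand from position 122888697 to 122898236. No strand setting was given in the sources used here, so reads of these genes cannot be told apart in the overlap. NUDT6 had 119 to 189 counts per library, against 9077 to 20758 for FGF2, and a mean of 8.32 CPM in PCDH, 6.57 in IDH1mt and 7.93 in C269S. The lncRNA AC021205.3, inside FGF2 on the opposite strand, had 7 to 30 counts.

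FGF7 (ENSG00000140285, chromosome 15, 49423096 to 49488775, plus strand) had the pattern opposite to FGF2 in IDH1mt. It stood at 37.0, 39.4 and 42.5 CPM in PCDH, at 15.5, 16.9 and 15.5 in IDH1mt, and at 43.5, 42.6 and 35.3 in C269S. The 3 IDH1mt libraries were low and apart from the 6 others, and PCDH and C269S overlapped. The level was 2.48-fold lower in IDH1mt than in PCDH (log2 fold change -1.31, SE 0.10) and 2.53-fold higher in C269S than in IDH1mt (1.34, SE 0.10). C269S against PCDH gave 0.03 (SE 0.09). With any library left out this value lay between -0.03 and 0.12.

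All of FGF7 lies within FAM227B on the opposite strand, which had 115 to 156 counts per library against 290 to 959 for FGF7. FAM227B was near level, with means of 6.43, 6.66 and 6.33 CPM in PCDH, IDH1mt and C269S. The 8 partial copies of FGF7 named FGF7P in the table summed to between 0 and 13 counts per library. Reads shared with such copies are uncertain.

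FGF5 (ENSG00000138675, chromosome 4, 80266599 to 80336680, plus strand), a ligand known as a brake on hair growth, was similar in all groups. It stood at 10.9, 12.2 and 12.6 CPM in PCDH, at 11.0, 13.4 and 10.4 in IDH1mt, and at 10.2, 13.3 and 9.46 in C269S. All groups overlapped. The log2 fold changes were -0.03 for IDH1mt against PCDH, -0.12 for C269S against PCDH and -0.09 for C269S against IDH1mt (SE 0.14 each).

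FGF1 (ENSG00000113578, chromosome 5, 142592178 to 142698070, minus strand), acidic FGF, which can bind all of the signalling receptors, was the ligand with the lowest level. It stood at 7.08, 8.39 and 8.69 CPM in PCDH, at 7.03, 7.0 and 8.09 in IDH1mt, and at 5.92, 7.70 and 6.71 in C269S. The groups overlapped in every pair. Against PCDH the log2 fold change was -0.13 (SE 0.15) in IDH1mt and -0.25 (SE 0.15) in C269S. SPRY4-AS1 overlaps it on the opposite strand and had 34 to 60 counts per library against 116 to 199 for FGF1.

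**Figure D1:**
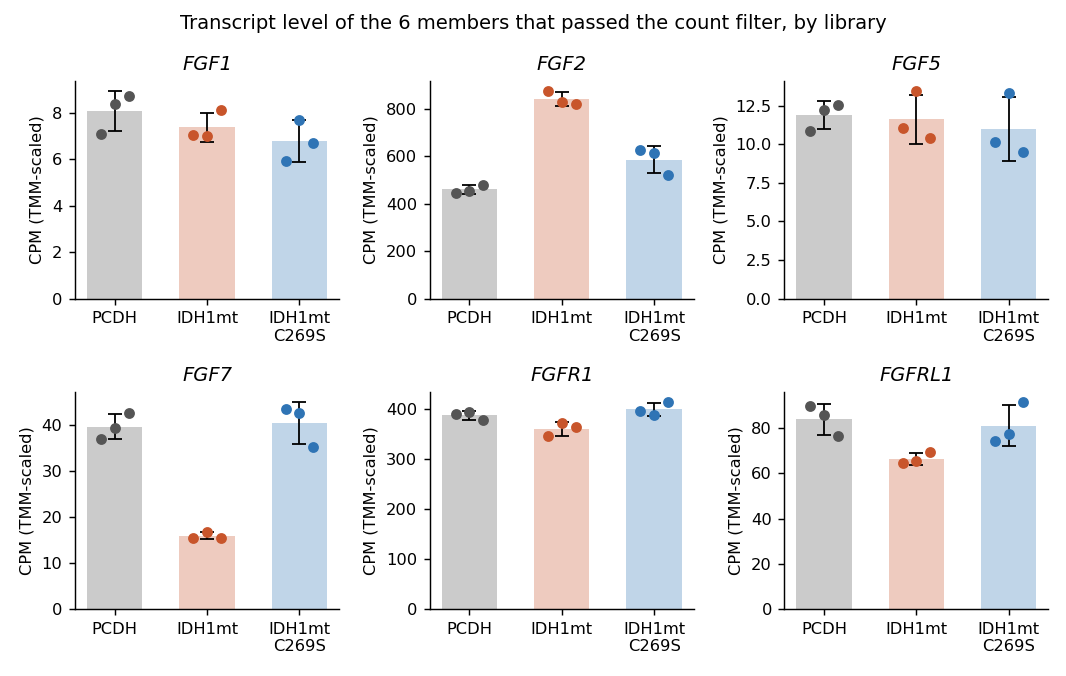
TMM-scaled CPM (y axis, from 0, a separate scale per gene) of the 6 genes that passed the count filter. Points are libraries, bars are group means and error bars are SD (n = 3). FGF2 is highest in the 3 IDH1mt libraries (819 to 874 CPM) and FGF7 is lowest there (15.5 to 16.9 CPM), while FGF1 and FGF5 overlap in all groups.

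FGFR1 (ENSG00000077782, chromosome 8, 38400215 to 38468834, minus strand), the receptor most often tied to FGF2 signalling in glioma, was the main signalling receptor transcript. It stood at 389, 394 and 378 CPM in PCDH, at 346, 373 and 364 in IDH1mt, and at 396, 388 and 414 in C269S. The IDH1mt libraries lay just below all others, and PCDH and C269S overlapped. The differences were small, with a log2 fold change of -0.10 (SE 0.05) for IDH1mt against PCDH, 0.04 (SE 0.05) for C269S against PCDH and 0.15 (SE 0.05) for C269S against IDH1mt. LETM2 and AC087623.1 overlap it on the opposite strand with 83 to 144 and 66 to 115 counts, against 6790 to 9357 for FGFR1.

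FGFRL1 (ENSG00000127418, chromosome 4, 1009936 to 1026897, plus strand), the receptor without a kinase, stood at 89.6, 85.6 and 76.4 CPM in PCDH, at 64.6, 65.4 and 69.5 in IDH1mt, and at 74.3, 77.4 and 91.5 in C269S. Again the IDH1mt libraries were the lowest 3, apart from the others, and PCDH and C269S overlapped widely. IDH1mt was 1.26-fold below PCDH (log2 fold change -0.33, SE 0.08). C269S was 1.22-fold above IDH1mt (0.29, SE 0.08) and differed from PCDH by -0.05 (SE 0.08).

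FGFR2, FGFR3 and FGFR4 were hardly counted. FGFR2 (ENSG00000066468, chromosome 10, 121478334 to 121598458, minus strand), whose epithelial splice form is the receptor of FGF7, had 3, 0 and 1 counts in PCDH, 0, 2 and 0 in IDH1mt and 0 in each C269S library. FGFR3 (ENSG00000068078, chromosome 4, 1793293 to 1808872, plus strand) had 1, 7 and 1 counts in PCDH, 0, 4 and 3 in IDH1mt, and 5, 3 and 0 in C269S. FGFR4 (ENSG00000160867, chromosome 5, 177086886 to 177098144, plus strand) had 0, 0 and 5 counts in PCDH, 3, 1 and 1 in IDH1mt, and 0, 0 and 3 in C269S. A count of 0 still allows up to 3 counts in a library, so no difference between groups was detectable at this depth. The sums over all 9 libraries were 6, 24 and 13 counts. Epithelial cells, in which FGFR2 is typical, have a marker list of 6 genes that summed to 3.33 to 5.10 CPM over the 9 libraries, and ESRP1, the factor that makes the epithelial splice form, had 5 counts in all.

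By edgeR's quasi-likelihood test over 16874 genes (called at an adjusted p under 0.05), IDH1mt exceeded PCDH for 7.18% of all genes and lay below it for 6.90%. FGF2 was among the higher, and FGF7 and FGFRL1 among the lower. C269S was higher than PCDH for 0.883% of genes, FGF2 among them, and lower for 0.533%. C269S was higher than IDH1mt for 2.29% of genes, FGF7 and FGFRL1 among them, and lower for 2.61%, FGF2 among them. Since these comparisons were known when the genes were chosen, nothing is read from those calls. The comparisons share libraries and are not independent of each other.

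**Figure D2:**
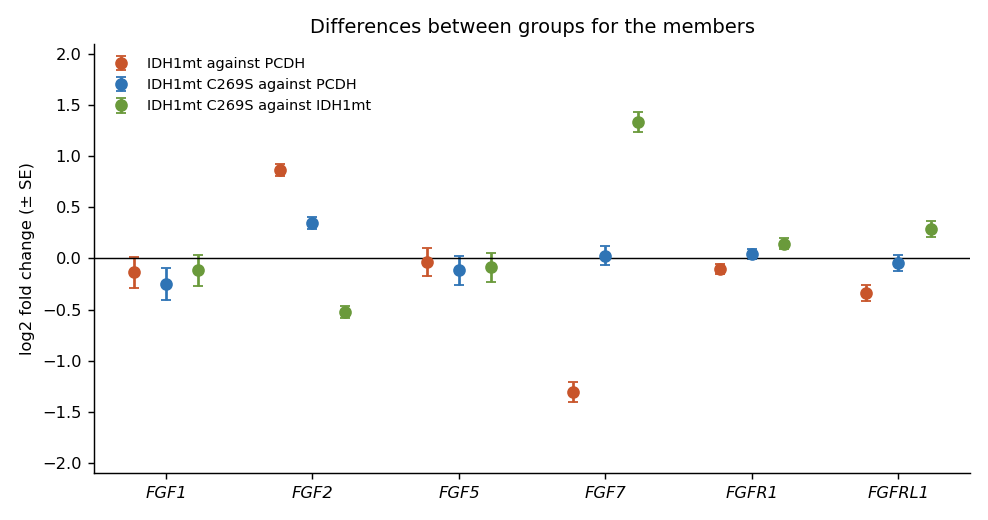
Log2 fold change (y axis) with its SE for the 6 genes in the 3 comparisons between groups. FGF2 stands at 0.87 and FGF7 at -1.31 for IDH1mt against PCDH, and FGF7 returns to 0.03 for C269S against PCDH while FGF2 stays at 0.35.

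Levels of different genes were compared as deposited FPKM (fragments per kilobase of gene, scaled per library by a factor of unstated origin). This factor enters FPKM levels and sums compared between groups, but not shares or ratios within a library. In PCDH the order was FGF2 at 67.4 ± 2.74 FPKM (SD, n = 3), FGFR1 at 27.7 ± 0.572, FGFRL1 at 20.0 ± 1.57, FGF7 at 5.90 ± 0.426, FGF5 at 1.96 ± 0.153 and FGF1 at 1.51 ± 0.165. In IDH1mt, FGF2 stood at 123 ± 4.25 FPKM, FGFR1 at 25.9 ± 1.0, FGFRL1 at 16.0 ± 0.625, FGF7 at 2.39 ± 0.117, FGF5 at 1.93 ± 0.266 and FGF1 at 1.39 ± 0.117. The order was the same, with FGF7 closer to FGF5. In C269S, FGF2 stood at 86.0 ± 8.50 FPKM, FGFR1 at 28.7 ± 0.949, FGFRL1 at 19.4 ± 2.20, FGF7 at 6.05 ± 0.669, FGF5 at 1.82 ± 0.342 and FGF1 at 1.28 ± 0.169. FGFR2, FGFR3 and FGFR4 had group means of at most 0.0278 FPKM. On the deposited gene lengths, neighbours among the 6 others lay apart by more than the sum of their SDs in every group. This need not hold with other lengths. The deposited length of FGFR1 is 13842 bases, against 6054 for its longest coding transcript, and the shorter length would place FGFR1 closer to FGF2.

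The 4 ligands together came to 76.8 ± 3.44 FPKM in PCDH, 129 ± 4.11 in IDH1mt and 95.1 ± 9.37 in C269S. FGF2 made up 87.8 ± 0.453% of this sum in PCDH, 95.6 ± 0.326% in IDH1mt and 90.4 ± 0.404% in C269S. FGF7 made up 7.68 ± 0.215%, 1.85 ± 0.119% and 6.35 ± 0.0891%. The ratio of FGF2 to FGF7 was 11.8, 11.4 and 11.1 in the PCDH libraries, 55.3, 48.3 and 51.8 in IDH1mt, and 14.1, 14.2 and 14.4 in C269S. The 3 groups stood apart in this ratio, with C269S much closer to PCDH than to IDH1mt. FGF2 and FGF7, the ligands with the widest differences, were paired with those differences known. The gap in the ratio therefore restates them and adds no support.

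The 5 receptors together came to 47.8 ± 2.03 FPKM in PCDH, 41.9 ± 1.36 in IDH1mt and 48.1 ± 3.07 in C269S. FGFR1 made up 58.0 ± 1.57%, 61.8 ± 1.04% and 59.6 ± 1.98% of this sum, and nearly all of the rest was FGFRL1. These shares depend on the gene length that the FPKM used. The deposited length is 13842 bases for FGFR1, while its longest coding transcript in GENCODE release 29 has 6054. With that length for every gene, an alternative chosen after seeing the data, FGFR1 made up 73.5%, 76.5% and 74.8%.

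**Figure D3:**
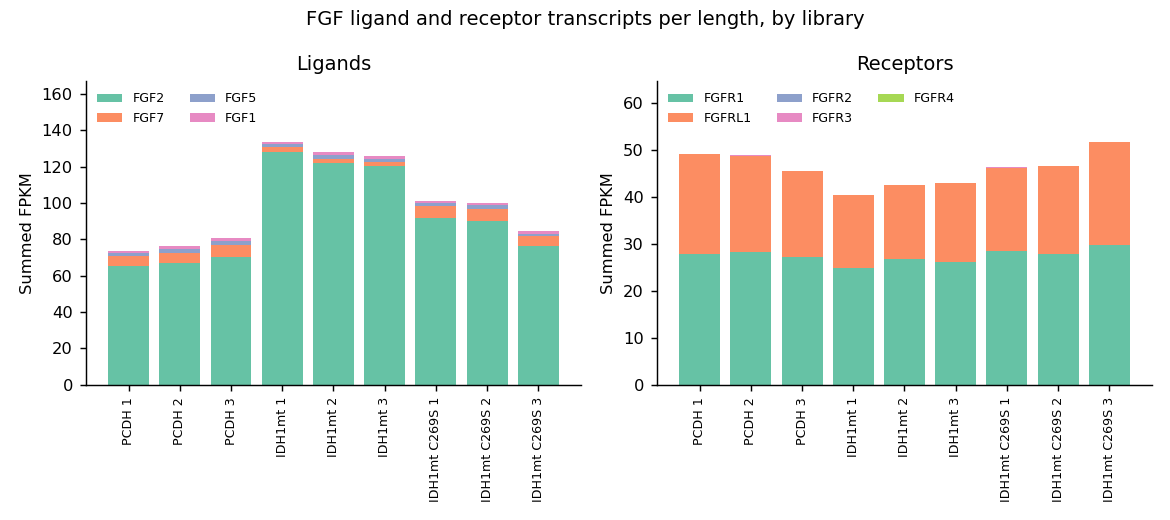
Deposited FPKM (y axis) of the 4 ligands (left) and 5 receptors (right), stacked by gene for each of the 9 libraries. FGF2 fills most of each ligand bar and the bars are tallest in IDH1mt, while FGFR1 and FGFRL1 make up the receptor bars and FGFR2, FGFR3 and FGFR4 are too low to see.

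Among the other 14 FGF ligands, FGF18 alone passed the count filter, at 0.679 ± 0.169 CPM in PCDH, 0.668 ± 0.385 in IDH1mt and 0.632 ± 0.247 in C269S. FGF3, FGF4, FGF6, FGF16 and FGF23 had 0 counts in all libraries. FGF20 had the most counts of the rest, with 14, 17 and 4 in PCDH, 5, 6 and 3 in IDH1mt, and 6, 2 and 6 in C269S, and is named after its values were seen. The FGF homologous factors, which stay inside the cell and bind sodium channels, all passed the filter. Their means in PCDH, IDH1mt and C269S were 9.05, 7.57 and 7.94 CPM for FGF13, 6.61, 4.97 and 5.5 for FGF14, 4.46, 3.80 and 3.51 for FGF12, and 0.973, 0.743 and 0.786 for FGF11. None of these 5 genes passed the test with edgeR in any comparison, and none did with DESeq2 or with limma on FPKM. Of all genes, 7.18% were higher and 6.90% lower in IDH1mt against PCDH, so nothing is read from 5 genes. At an unadjusted p under 0.05 in edgeR, 1 homologous factor was lower in IDH1mt than in PCDH.

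The rest of the pathway was read from 8 lists of 131 other genes, of which 105 were tested. These lists were chosen with earlier results of these data known, and all genes were not matched to them for level. Their calls and shares, here and by list below, are thus a description. No excess over all genes is read from them. In IDH1mt against PCDH, 27 of these rose (25.7%, against 7.18% of all genes) and 9 fell (8.57%, against 6.90%). In C269S against PCDH, 9 rose (8.57%, against 0.883%) and 0 fell. No fall was found with DESeq2 or limma, and 3 genes were lower at an unadjusted p under 0.05 in edgeR. In C269S against IDH1mt, 10 rose (9.52%, against 2.29%) and 11 fell (10.5%, against 2.61%). The median log2 fold changes of the 105 genes were 0.03, 0.06 and -0.01, against -0.01, -0.01 and 0.00 over all genes. Some counts rested on single libraries. The 27 became 17 without IDH1mt replicate 3, the 9 that rose in C269S became 16 without PCDH replicate 3 and 5 without C269S replicate 1, and the 0 became 2 without PCDH replicate 3 and 1 without C269S replicate 3. Of C269S against IDH1mt, the 10 became 6 without C269S replicate 1, and the 11 became 7 without IDH1mt replicate 1, IDH1mt replicate 3 or C269S replicate 1. Scaling by library size alone turned the 9 falls in IDH1mt into 15.

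The 25 feedback inhibitors and target genes of FGF signalling, all tested, moved in both directions. In IDH1mt against PCDH, 10 rose (40%, against 7.18% of all genes) and 6 fell (24%, against 6.90%), with a median log2 fold change of 0.05. ERRFI1, an inhibitor of the EGF receptor family, stood at 253 ± 12.2 CPM in PCDH, 662 ± 25.9 in IDH1mt and 320 ± 14.3 in C269S. It rose in IDH1mt (log2 fold change 1.39, SE 0.06, edgeR adjusted p = 2.38e-18) and less in C269S (0.34, adjusted p = 0.000325), and the fall from IDH1mt to C269S passed as well (-1.05, adjusted p = 6.12e-15). DUSP6, the ERK phosphatase, stood at 91.9 ± 4.61, 173 ± 6.31 and 147 ± 1.28 CPM in PCDH, IDH1mt and C269S. It rose in both lines against PCDH (0.91, adjusted p = 7.01e-13, and 0.68, adjusted p = 7.38e-09). Its difference of -0.23 between C269S and IDH1mt (adjusted p = 0.0165) did not pass without IDH1mt replicate 1 (adjusted p = 0.101), IDH1mt replicate 3 (0.114), C269S replicate 1 (0.0878) or C269S replicate 2 (0.0627). DUSP5, a nuclear ERK phosphatase, rose in IDH1mt (0.55, adjusted p = 1.85e-06) and in C269S (0.44, adjusted p = 0.000458). EPHA2, an ephrin receptor, rose in IDH1mt (0.61, adjusted p = 3.24e-08) and fell from IDH1mt to C269S (-0.40, adjusted p = 0.000115).

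Other genes of the same list fell in IDH1mt, feedback inhibitors among them. CCND1, cyclin D1, stood at 595 ± 19.4 CPM in PCDH, 401 ± 23.7 in IDH1mt and 557 ± 16.2 in C269S, a fall of -0.57 (SE 0.05, edgeR adjusted p = 2.3e-09) and a rise of 0.48 from IDH1mt to C269S (adjusted p = 1.82e-07). ETV1, an ETS transcription factor, stood at 168 ± 17.1, 116 ± 6.86 and 161 ± 13.7 CPM, with -0.54 (adjusted p = 2.43e-06) and 0.47 (adjusted p = 4.87e-05) in these comparisons. DUSP7, a cytoplasmic ERK phosphatase, fell by 0.43 on the log2 scale in IDH1mt (adjusted p = 0.000283), and SPRY2, a Sprouty inhibitor, by 0.28 (adjusted p = 0.00182). SPRY2 stood at 137, 113 and 146 CPM, and its relative SPRY4 at 37.9, 52.7 and 48.8. SPRY4 rose in IDH1mt (0.48, adjusted p = 6.05e-05), so that the Sprouty genes moved in opposite directions. From IDH1mt to C269S, 7 genes of the list rose (28%, against 2.29% of all genes) and 4 fell (16%, against 2.61%). The 4 became 2 without IDH1mt replicate 1 or 3 or C269S replicate 1 or 2. IL17RD, another gene of the list, rose in IDH1mt against PCDH, by 0.87 to 1.31 with each library left out (edgeR adjusted p up to 0.0204). IL17RD fell from IDH1mt to C269S, but that call was lost in 11 of 18 alternative settings. EGR1, an immediate early gene, was among the 7 (0.56, adjusted p = 4.92e-05).

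In C269S against PCDH, 5 of the 25 feedback and target genes rose (20%, against 0.883% of all genes) and 0 fell (against 0.533%). The 5 were DUSP6, ERRFI1, DUSP5, SPRY4 and IER3, a stress-response gene. With DESeq2 8 rose, with limma 1, and no fall was found by either or at an unadjusted p in edgeR. The 5 became 9 without PCDH replicate 3 and 3 without C269S replicate 3. SPRY4 (log2 fold change 0.37, edgeR adjusted p = 0.0114) lost its call without C269S replicate 3 (adjusted p = 0.0692). IER3 (0.23, adjusted p = 0.0204), named after its values were seen, lost it without PCDH replicate 2, C269S replicate 1 or C269S replicate 3 (adjusted p = 0.155, 0.146 and 0.0771).

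Of the heparan sulfate proteoglycans, the carriers of the co-receptor chains, 13 of 15 were tested. In IDH1mt, 8 rose (61.5%, against 7.18% of all genes) and 1 fell (7.69%, against 6.90%), with a median log2 fold change of 0.28. The 8 became 5 without PCDH replicate 1, IDH1mt replicate 1 or IDH1mt replicate 3. CD44, a hyaluronan receptor that carries heparan sulfate in some splice forms, rose (0.33, edgeR adjusted p = 4.49e-06), as did the syndecan SDC4 (0.33, adjusted p = 7.19e-05), the betaglycan gene TGFBR3 (0.53, adjusted p = 0.00139) and the glypican GPC1 (0.28, adjusted p = 0.00251). GPC6, another glypican, fell (-0.32, adjusted p = 0.00268). CD44 was the sole proteoglycan that rose in C269S against PCDH (0.21, adjusted p = 0.0124), which did not pass without PCDH replicate 1 (adjusted p = 0.0637), PCDH replicate 2 (0.0841), C269S replicate 1 (0.0661) or C269S replicate 2 (0.0926). From IDH1mt to C269S, GPC1 (-0.30, adjusted p = 0.00353), SDC4 (-0.23, adjusted p = 0.00812) and AGRN, agrin (-0.24, adjusted p = 0.0243), fell and GPC6 rose (0.25, adjusted p = 0.0461). The calls of SDC4, AGRN and GPC6 were each lost without IDH1mt replicate 1 (adjusted p = 0.0912, 0.0867 and 0.139) and without C269S replicate 1 (adjusted p = 0.116, 0.148 and 0.194). AGRN and GPC6 also lost theirs without IDH1mt replicate 2 or 3 or C269S replicate 2, with an adjusted p of up to 0.182 for AGRN and 0.201 for GPC6.

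Some enzymes that build or modify the chains rose. Of 21 genes for making, modifying or trimming the chains, 14 were tested. In IDH1mt, 6 rose (42.9%, against 7.18% of all genes) and 0 fell (against 6.90%). In C269S, 3 rose (21.4%, against 0.883%) and 0 fell (against 0.533%). DESeq2 found the same counts. Limma found 3 and 0 in IDH1mt on either FPKM scale, and in C269S 1 and 0 on log2(FPKM + 1) and 0 and 0 on log2(FPKM + 0.1). No enzyme was lower at an unadjusted p under 0.05 in edgeR. HS3ST3B1, a sulfotransferase that adds a rare sulfate group late in chain synthesis, stood at 58.5 ± 3.56 CPM in PCDH, 117 ± 2.24 in IDH1mt and 89.8 ± 4.67 in C269S. Its log2 fold change was 1.0 in IDH1mt (SE 0.07, edgeR adjusted p = 8.96e-13), 0.62 in C269S (adjusted p = 5.55e-07) and -0.39 between them (adjusted p = 0.000192). NDST1, which starts sulfation, stood at 223 ± 11.3, 301 ± 5.63 and 246 ± 8.86 CPM and rose in IDH1mt (0.43, adjusted p = 9.5e-07), and fell from there to C269S (-0.29, adjusted p = 0.000859). GLCE, an epimerase of the chain, rose in IDH1mt (0.50, adjusted p = 1.05e-05) and in C269S (0.34, adjusted p = 0.0129). The latter call did not hold without PCDH replicate 1 (adjusted p = 0.129), C269S replicate 1 (0.0717) or C269S replicate 2 (0.138). EXT1, a chain polymerase, rose in C269S as well (0.25, adjusted p = 0.00715), but not without PCDH replicate 1 (adjusted p = 0.0584) or C269S replicate 1 (0.0717). The count of 6 became 3 without PCDH replicate 1 or IDH1mt replicate 2 or 3, and the count of 3 in C269S fell to 1 when either PCDH replicate 1 or C269S replicate 1 was left out. The sulfatases SULF1 and SULF2, which remove sulfate at the cell surface, had 10 and 18 counts in all libraries together, and HPSE, heparanase, which cuts the chains, did not pass (-0.13 in IDH1mt and 0.11 in C269S against PCDH).

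All 30 adaptors and kinases of the cascade were tested. In IDH1mt against PCDH, 2 rose (6.67%, against 7.18% of all genes) and 1 fell (3.33%, against 6.90%). These shares are no higher than over all genes, so nothing is read from the 27 that did not pass. SHC1, an adaptor, fell (-0.35, edgeR adjusted p = 6.41e-05), from 246 ± 14.1 CPM in PCDH to 194 ± 1.87, with 218 ± 13.5 in C269S. CRKL, another adaptor, rose (0.30, adjusted p = 0.000193). RPS6KA1, a kinase below ERK, passed narrowly (0.21, adjusted p = 0.0449) and was lost with any library left out other than PCDH replicate 2, PCDH replicate 3 or C269S replicate 3, with an adjusted p of up to 0.192. The 2 that rose became 8 when PCDH replicate 3 was left out and 4 when C269S replicate 3 was, and 1 when any of PCDH replicate 1, IDH1mt replicate 2, IDH1mt replicate 3, C269S replicate 1 and C269S replicate 2 was. FRS2 stood at 20.3, 19.4 and 20.2 CPM and GRB2 at 180, 186 and 185 in PCDH, IDH1mt and C269S, and these were picked for their role. From IDH1mt to C269S, CRKL fell (-0.23, adjusted p = 0.00845), but not without IDH1mt replicate 3 (adjusted p = 0.0614).

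Of 16 co-receptors and extracellular binding proteins, 13 were tested. In IDH1mt against PCDH, 1 rose (7.69%, against 7.18% of all genes) and 1 fell (7.69%, against 6.90%), near the shares of all genes. NCAM1, a cell adhesion molecule that binds FGF receptors, stood at 45.2 ± 3.53 CPM in PCDH, 34.8 ± 0.742 in IDH1mt and 43.8 ± 1.56 in C269S and fell in IDH1mt (-0.38, edgeR adjusted p = 0.00103). Its rise from IDH1mt to C269S (0.33, adjusted p = 0.00956) did not pass without IDH1mt replicate 1 (adjusted p = 0.0658) or C269S replicate 1 (0.0543). L1CAM, a related adhesion molecule, rose in IDH1mt (0.79, adjusted p = 0.00285), from 3.71 ± 0.489 CPM to 6.44 ± 0.558. From IDH1mt to C269S, THBS1, thrombospondin, which binds FGF2, rose (0.49, adjusted p = 0.00414) and PTX3, a pentraxin that also binds FGF2, fell (-0.27, adjusted p = 0.00352). The single fall in IDH1mt became 2 without PCDH replicate 1 or 3, the single rise 2 without PCDH replicate 3, and the 2 rises from IDH1mt to C269S became 1 without IDH1mt replicate 1 or C269S replicate 1. The co-receptors of endocrine FGFs, KL and KLB, had 2 and 15 counts in all. Of the 6 splicing and trafficking factors of the receptors, 5 were tested, and none passed in edgeR, DESeq2 or limma in any comparison. With 7.18% of all genes higher and 6.90% lower in IDH1mt against PCDH, 5 genes are too few to read from. At an unadjusted p under 0.05 in edgeR, 1 of them was lower in C269S than in IDH1mt.

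**Figure D4:**
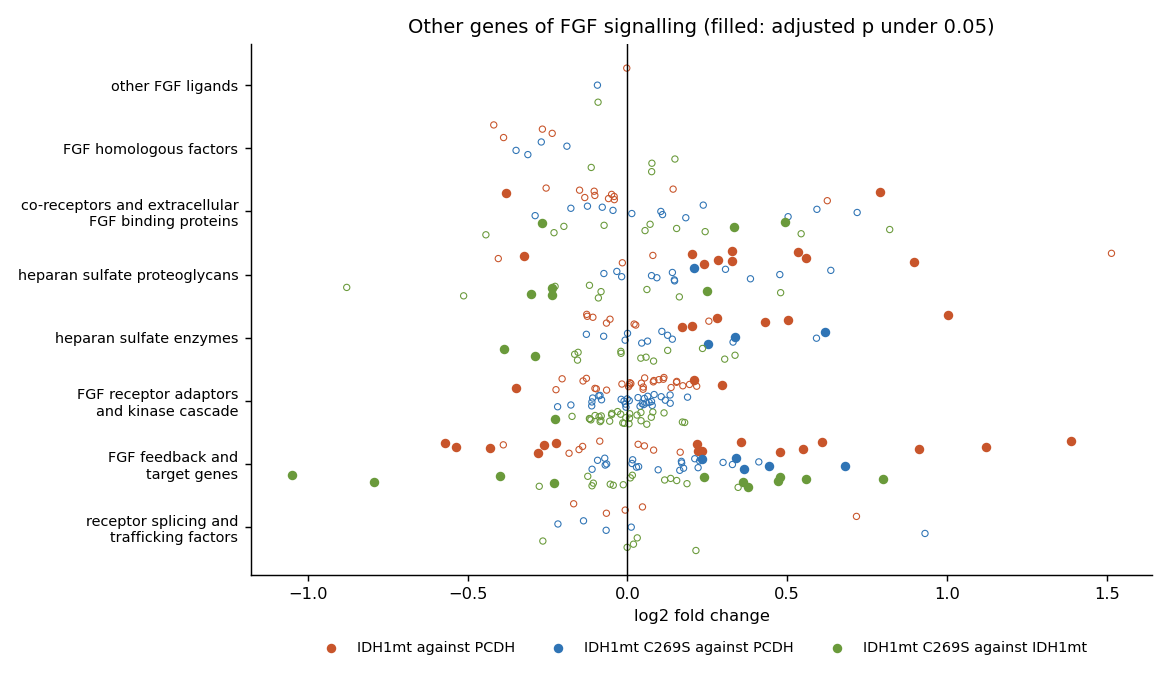
Log2 fold change (x axis) of the 105 tested genes of the 8 lists (rows), 1 point per gene and comparison, colored by comparison and filled where the edgeR adjusted p was under 0.05. Filled points for IDH1mt against PCDH lie mostly right of 0 among proteoglycans and their enzymes, and on both sides among feedback and target genes.

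FGF7 had the widest range of group means among the 6 genes, 1.33 on the log2 CPM scale, ahead of FGF2 (0.87), FGFRL1 (0.33), FGF1 (0.25), FGFR1 (0.15) and FGF5 (0.13). Out of 11603 protein-coding genes with a mean log2 CPM of at least 1, those most like FGF7 over the 9 libraries by Pearson's r were AMPH (0.986), PLPPR4 (0.984), SRGN (0.981), CD274 (0.979) and HGF (0.979). These values describe 9 libraries in 3 groups, share depth and scaling, and reflect mainly the separation of IDH1mt from the rest. HGF, the ligand of the MET receptor, stood at 82.0 ± 7.53 CPM in PCDH, 19.4 ± 2.24 in IDH1mt and 63.9 ± 6.21 in C269S. Its level in IDH1mt was thus also the lowest, with a wider difference than FGF7. CD274, the immune checkpoint ligand PD-L1, stood at 42.1, 23.7 and 40.6 CPM, and SRGN, serglycin, at 210, 142 and 212. PLPPR4, a lipid phosphatase-related protein, stood at 50.9, 31.0 and 50.5 CPM, and AMPH, amphiphysin, at 28.5, 23.0 and 27.9.

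**Figure D5:**
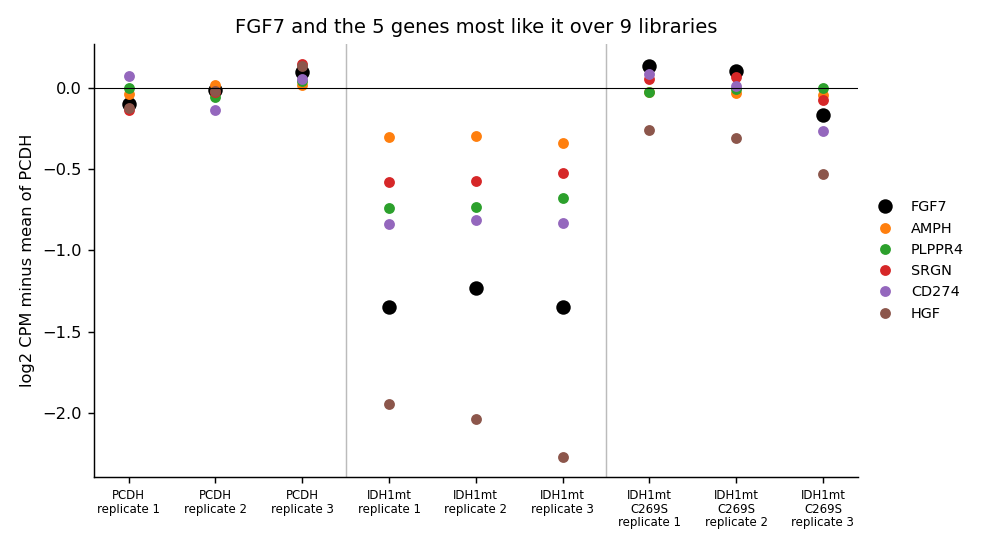
Log2 CPM minus the mean of the PCDH libraries (y axis) for FGF7 and the 5 genes most like it, 1 point per gene and library (x axis). All 6 genes are low in the 3 IDH1mt libraries, and HGF lies below 0 in the 3 C269S libraries as well, as does AMPH by a small margin.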

How the data were processed

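RNA sequencing of 9 U87 libraries was used. Per the submitters' processing notes, HISAT2 version 2.0.5 and featureCounts version 1.5.0-p3 were used, with builds GRCh38 and hg38. The deposited counts are whole reads per gene, not normalized. The deposited FPKM values were scaled by the authors for gene length and library. The sources used here give neither library kit nor strand setting. Columns Control, mt and CS were matched to groups by name.

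Counts were filtered with filterByExpr, scaled by TMM and fitted for all 9 libraries together with edgeR 4.0.16 (robust quasi-likelihood F test, R 4.3.3). P-values were adjusted by Benjamini and Hochberg over 16874 genes. The SE was derived from F, as |log2 fold change| over its square root. DESeq2 1.42.0 and limma 3.58.1, on log2(FPKM + 1) and log2(FPKM + 0.1) for genes with a mean FPKM of at least 0.1, were alternatives. The procedure was tested on simulated data. Replicate numbers did not pair libraries: same-numbered libraries' deviations from group means correlated at -0.09 to 0.06 in 9 pairs. Any 2 libraries differed in at least 25481 genes.

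The 9 genes and the 8 lists were chosen with earlier results of these data known. Named were the 9 genes, IDH1, up to 4 genes per list, comparison and direction with the lowest adjusted p, other FGFs that passed the filter, genes overlapping or copying the 9, and the 5 genes most like the one with the widest range. One marker list is not reported here.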

Additional observations from a re-analysis of the deposited data

How the results depend on the processing

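Over the alternative settings, 322 of 324 values of the FGF and receptor genes moved by less than the replicate SD and none reversed. The exceptions were for FGF7 under limma on log2(FPKM + 1), at -1.03 (IDH1mt against PCDH) and 1.05 (C269S against IDH1mt), where the pseudocount shrinks low values. With each library left out, FGF2 ranged over 0.84 to 0.90, 0.30 to 0.43 and -0.57 to -0.44 in the 3 comparisons, and FGF7 over -1.36 to -1.26, -0.03 to 0.12 and 1.28 to 1.43. Among 35 other named genes, 1717 of 1879 values kept their side of the threshold, 145 lost and 17 gained a call, and none reversed. The counts of pathway genes higher and lower were 27 and 9 (IDH1mt against PCDH), 9 and 0 (C269S against PCDH), and 10 and 11 (C269S against IDH1mt). Leaving out 1 library gave 17 to 31 and 8 to 10, 5 to 16 and 0 to 2, and 6 to 12 and 7 to 12. Limma on log2(FPKM + 1) gave 15 and 5, 2 higher, and 4 and 3; on log2(FPKM + 0.1) it gave 14 and 5, 1 higher, and 1 and 2; the cause was not tested. Library size alone gave 15 lower in IDH1mt. It also moved the share of all calls that were higher from 51.0% to 35.2% for IDH1mt against PCDH and from 46.8% to 60.1% for C269S against IDH1mt, with medians shifted by less than 0.1. With the replicate block the counts were 21 and 8, 9 and 0, and 9 and 9. With the longest coding transcript as gene length, FGFR1 made up 73.5%, 76.5% and 74.8% of receptors and FGF2 85.5%, 94.7% and 88.6% of ligands in PCDH, IDH1mt and C269S. Depth limits FGFR2, FGFR3, FGFR4 and most other FGFs, with too few counts to compare.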
